A study of Mus musculus with 20 samples.

Results

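The promoters of the miR-34 and miR-449 family were 5 of the 22480 promoters measured, and they were selected by gene symbol (Mir34a, Mir34b, Mir34c, Mir449a and Mir449c), whatever their values. A promoter was the probe of 2200 bp that reached from 2000 bp upstream to 200 bp downstream of a gene start, here the start of the microRNA hairpin. The paper calls this a broad definition that differs from that of a true promoter. Whether a probe held the start of the primary microRNA transcript was not tested. The 5 probes lay at 3 loci of the mouse genome (mm10). The study asked whether prenatal exposure to bis(2-ethylhexyl)phthalate (DEHP), a plasticizer, alters sperm DNA methylation in the sons, and whether 2 inbred strains respond alike. Pregnant mice of the C57BL/6J or the FVB/N strain were given either 300 mg/kg/day of DEHP by mouth in corn oil or corn oil alone from gestation day 9 to 19, and sperm DNA of the male offspring was collected at 8 weeks of age from the vas deferens and epididymis. MBD-sequencing of 20 males gave 4 groups of 5, the FVB/N control, FVB/N DEHP, C57BL/6J control and C57BL/6J DEHP males. In this assay a methyl binding domain pulls down DNA fragments that carry methylated CG sites, so more reads stand for more captured methylated DNA, not for a methylation percentage. The DEHP and the control DNA were processed as separate submissions, so exposure and submission cannot be told apart, and the labels do not say whether males of a group were brothers.

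MicroRNAs are short RNAs cut from a hairpin that repress messenger RNAs by pairing through their seed. Mir34a is a classical target of the tumour suppressor p53 and is expressed in many tissues, while Mir34b and Mir34c share a transcript and, like the Mir449 cluster, are found mainly in testis and in tissues with motile cilia. The family acts redundantly in late spermatogenesis and in ciliated cells, and miR-34c is among the microRNAs carried by sperm. The sequences that define the family are shown first, from RefSeq on GRCm38.p6. Mature 5p sequences were matched for 4 of the 5 members, and for Mir34c the hairpin is given. The seed (bases 2 to 8 of the mature form) is in capitals, and it is GGCAGUG in each.
miR-34a-5p: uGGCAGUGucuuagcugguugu
miR-34b-5p: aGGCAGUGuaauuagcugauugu
miR-449a-5p: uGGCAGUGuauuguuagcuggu
miR-449c-5p: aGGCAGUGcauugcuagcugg
Mir34c hairpin: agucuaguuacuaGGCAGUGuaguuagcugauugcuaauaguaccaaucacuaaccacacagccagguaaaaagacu
Counted base by base from the 5′ end, miR-449a and miR-449c were identical at 18 of 21 bases, miR-34a and miR-449a at 15 of 22, and miR-34a and miR-34b at 11 of 22. The seed stood once in each of the 5 hairpins.

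The family was therefore alike in its seed, and its promoters differed in place and CG content. The Mir34a probe covered chr4:150066454-150068653 on the plus strand and held 53 CG sites. Besides the Mir34a hairpin, the GENCODE annotation placed there only the first 115 bp of Gm37795, a transcript of unassigned type (TEC). The Mir34b and Mir34c probes covered chr9:51103446-51105645 and chr9:51102911-51105110 on the minus strand and held 70 and 82 CG sites. They shared 1665 bp (75.7% of each probe) with 69 CG sites. In GENCODE both lay inside an intron of a Btg4 transcript that starts at chr9:51060901 and runs on the other strand. The Btg4 probe of the series covered chr9:51103878-51106077, for a Btg4 start beyond the ends of both microRNA probes. The Mir449a and Mir449c probes covered chr13:113035534-113037733 and chr13:113033983-113036182 on the plus strand and held 29 and 78 CG sites. Both Mir449 probes overlapped Cdc20b, the host gene of the cluster, and the Mir449c probe included 5′ exons of Cdc20b. Those 2 probes shared 649 bp (29.5% of each) with 12 CG sites. The median over all promoters was 45 CG sites. Read-pairs over a shared stretch were counted in each probe, so probes of the same locus are not independent of each other.

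The 200 bases richest in CG sites of each stretch show how unequal the loci were in CG content. CG sites are in capitals, and each sequence is read along the strand of its microRNA. The stretch at Mir34a held 11 CG sites, that shared by Mir34b and Mir34c held 23 and lay directly before the Mir34b hairpin, that of Mir449c held 28, and that of Mir449a outside the Mir449c probe held 7.
Mir34a, chr4:150067184-150067383: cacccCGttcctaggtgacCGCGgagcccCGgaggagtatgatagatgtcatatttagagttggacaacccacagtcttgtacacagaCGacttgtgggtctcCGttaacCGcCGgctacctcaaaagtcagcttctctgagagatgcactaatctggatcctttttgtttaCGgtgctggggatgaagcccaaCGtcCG
Mir34b and Mir34c, chr9:51103646-51103845: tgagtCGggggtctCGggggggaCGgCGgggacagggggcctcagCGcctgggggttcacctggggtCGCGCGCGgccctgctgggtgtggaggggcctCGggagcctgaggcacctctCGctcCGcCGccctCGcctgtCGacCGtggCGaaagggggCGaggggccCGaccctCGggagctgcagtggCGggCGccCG
Mir449c, chr13:113034962-113035161: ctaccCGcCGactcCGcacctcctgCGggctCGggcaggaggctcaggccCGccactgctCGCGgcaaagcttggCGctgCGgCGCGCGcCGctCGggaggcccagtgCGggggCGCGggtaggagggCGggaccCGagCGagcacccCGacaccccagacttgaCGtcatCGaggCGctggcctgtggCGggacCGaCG
Mir449a, chr13:113036229-113036428: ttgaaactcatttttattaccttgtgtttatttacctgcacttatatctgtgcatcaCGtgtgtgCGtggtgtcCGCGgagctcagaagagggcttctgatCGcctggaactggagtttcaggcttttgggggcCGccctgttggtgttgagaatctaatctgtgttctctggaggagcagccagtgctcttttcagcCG
Over whole probes the observed number of CG sites was 0.560 times the number expected from base composition for Mir449c, 0.529 for Mir34b, 0.519 for Mir34c, 0.340 for Mir34a and 0.299 for Mir449a.

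**Figure D1:**
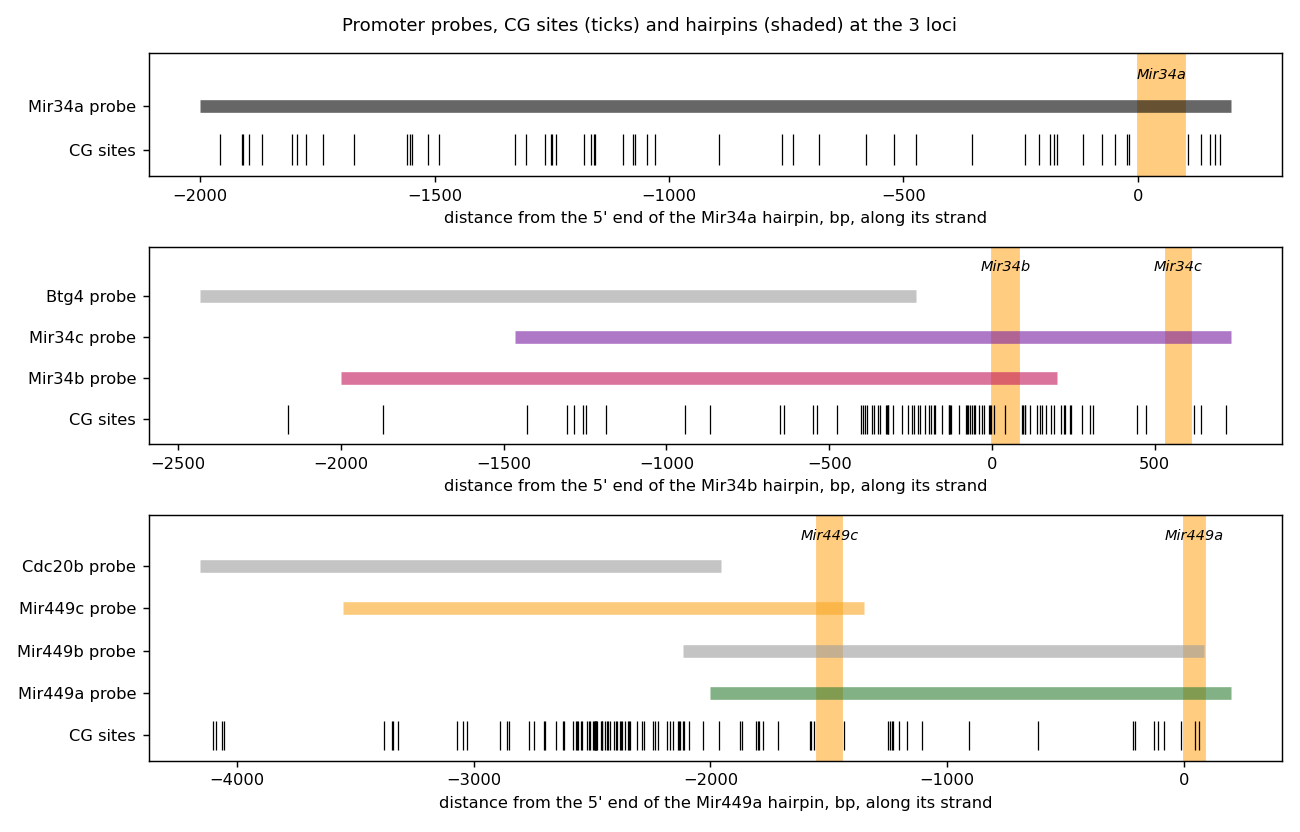
Probes (bars), CG sites (ticks) and member hairpins (shaded) at the 3 loci, in bp from the 5′ end of the first named hairpin along its strand, with the neighbouring Btg4, Mir449b and Cdc20b probes in grey. The CG sites of Mir34b and Mir34c crowd around the Mir34b hairpin inside both probes, while the dense CG sites of the Mir449 locus lie mostly in the part of the Mir449c probe that the Mir449a probe does not cover.

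Levels are the authors' mean and SD over the 5 males of a group, in normalized read-pairs per probe. The values of single males were not analysed here, so no test between groups was made. Instead a difference was called where the ranges of mean ± 1 SD did not overlap, and a stronger call was made where no library of one group could reach any library of the other (libraries separated), since none of 5 values can lie over 1.79 SD from its mean. The deposited scale differed between groups. The means over all promoters summed to 226268 in C57BL/6J control and to between 141092 and 153283 in the other groups, and the median promoter of C57BL/6J had 5 reads in controls and 5.3 after DEHP, while that of FVB/N had 3 and 4.9. A change is given as log2 of DEHP over control after adding 1 to each mean, which understates the change of low promoters, with an SD propagated from both groups. The median promoter changed by -0.10 in C57BL/6J and by 0.35 in FVB/N. Scaling the groups to equal sums moved that median by 0.43 in C57BL/6J, and scaling to equal medians moved it by -0.53 in FVB/N.

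Mir34a was the promoter of the family with the most captured DNA, and it was lower after DEHP in both strains. Its level was 50.3 ± 19.3 reads in C57BL/6J control sperm, 14.5 ± 7.2 in C57BL/6J DEHP sperm, 34.9 ± 5.5 in sperm of FVB/N controls, and 18.6 ± 5.4 in that of FVB/N DEHP males (SD, n = 5 each). Its mean was the highest of the 5 in every group, and in C57BL/6J DEHP its range overlapped that of the next promoter, Mir449a. Both control groups stood above both DEHP groups, and the ranges of mean ± 1 SD overlapped between the 2 control groups and between the 2 DEHP groups. The log2 ratio was -1.73 ± 0.86 in C57BL/6J, where the range of controls began at 31.0 and that of DEHP ended at 21.7. In FVB/N the log2 ratio was -0.87 ± 0.45, with controls from 29.4 and DEHP up to 24.0. Libraries were not shown to be separated, because single C57BL/6J controls could lie as low as 15.6 and single DEHP males as high as 27.5, and the corresponding limits in FVB/N were 24.9 and 28.4.

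Among all promoters the Mir34a level stood at the 97.9th percentile in C57BL/6J control and the 98.2nd in FVB/N control, and at the 89.8th and the 94.9th after DEHP. Among the 2504 promoters with a like number of CG sites (within 10%), whose median was 5 reads in C57BL/6J control, it stood at the 96.7th percentile there and at the 94.5th after DEHP. The DEHP change was at the 0.976th percentile of all promoters in C57BL/6J and at the 4.04th in FVB/N. It was not ranked among promoters of like level, and the upper end of C57BL/6J levels was lower after DEHP in general. At 50 to 59 CG sites the 90th percentile of that strain was 20.7 reads in controls and 11.5 after DEHP, while the median was 5 in both. For FVB/N the 90th percentile was 12.7 and 11.8, and the median 3 and 4.6. Relative to promoters with like CG sites the log2 ratio of Mir34a was -1.63 and -1.20 (C57BL/6J, then FVB/N). With groups scaled to equal sums it was -1.18 in C57BL/6J, and the ranges then overlapped. With equal medians it was -1.56 in FVB/N, and the libraries were then separated. That scaling moved the median promoter by -0.53 in FVB/N, and the share of all promoters separated under it was not counted.

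**Figure D2:**
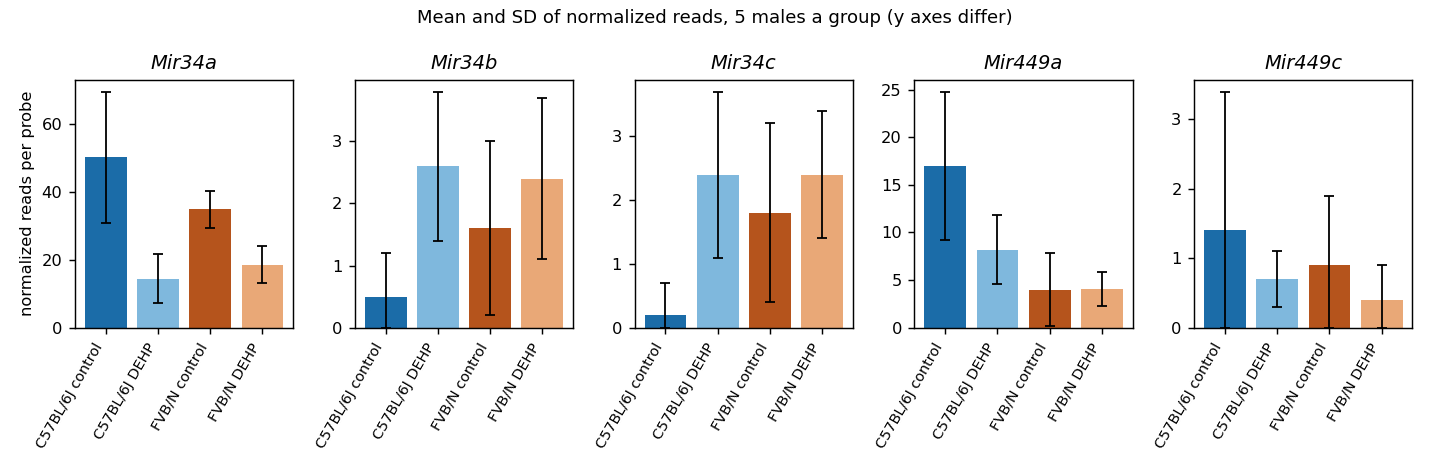
Authors' mean (bars) and SD (error bars, cut at 0) of normalized reads per probe in the 4 groups of 5 males, with a separate y axis for each promoter. Mir34a is lower in both DEHP groups than in both control groups, Mir34b and Mir34c are lowest in C57BL/6J control, and Mir449a is highest there.

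Mir34b and Mir34c, which are processed from the same primary transcript, had few captured reads in any group, and fewest in C57BL/6J control. Mir34b had 0.5 ± 0.7 reads in C57BL/6J control sperm, 2.6 ± 1.2 in C57BL/6J DEHP sperm, 1.6 ± 1.4 in sperm of FVB/N controls, and 2.4 ± 1.3 in that of FVB/N DEHP males. Mir34c had 0.2 ± 0.5, 2.4 ± 1.3, 1.8 ± 1.4 and 2.4 ± 1.0 in the same order. In C57BL/6J the ranges of mean ± 1 SD did not overlap for either probe, with controls up to 1.2 and DEHP from 1.4 for Mir34b, and controls up to 0.7 and DEHP from 1.1 for Mir34c. The log2 ratio was 1.26 ± 0.83 for Mir34b and 1.50 ± 0.82 for Mir34c, at the 97.8th and the 99.2nd percentile of all promoters. These changes were not ranked among promoters of like level. Promoters with a mean under 1 read became fewer after DEHP in general, from 1979 to 1048 in C57BL/6J and from 3329 to 1808 in FVB/N. In FVB/N the log2 ratio was 0.39 ± 0.95 for Mir34b and 0.28 ± 0.84 for Mir34c, with overlapping ranges. It turned to -0.09 and -0.21 with equal medians.

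These values rested on a handful of reads. Summed over the 5 C57BL/6J controls, Mir34b had 2.5 normalized reads and Mir34c had 1, against 13 and 12 over the 5 DEHP males. For Mir34c the SD requires that 1 of the 5 controls held at least 71.8% of the reads of that group, and for Mir34b at least 42.3%. A pseudocount of 0.1 in place of 1 gave log2 ratios of 2.17 and 3.06 in C57BL/6J. Both probes shared 69 of their CG sites, so they count as 1 observation. In C57BL/6J control the level was at the 1.79th percentile of promoters with like CG sites for Mir34b and at the 0.629th for Mir34c. After DEHP it was at the 25.8th and the 28.0th, and in FVB/N it was between the 28.0th and the 34.7th in both groups.

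The Btg4 promoter, whose probe shared 1768 bp with Mir34b and 1233 bp with Mir34c, differed in the same direction. Btg4 encodes a BTG family protein that acts in messenger RNA decay in oocytes. It had 1 ± 1 reads in C57BL/6J control sperm, 4.6 ± 0.7 in C57BL/6J DEHP sperm, 1.8 ± 1.2 in sperm of FVB/N controls, and 3.7 ± 1.2 in that of FVB/N DEHP males. Its libraries were separated in C57BL/6J, every DEHP male lying above every control, the log2 ratio being 1.49 ± 0.74. Separation in that direction was found at 0.249% of all promoters. In FVB/N the log2 ratio was 0.75 ± 0.72 with overlapping ranges. Since a read-pair in the Btg4 probe that also touched the microRNA probes was counted in Mir34b, at least 2 of the 4.6 reads in C57BL/6J DEHP (43.5%) fell outside the Mir34b and Mir34c probes. That part is 432 bp long and held 1 CG site. The corresponding excess of Btg4 over Mir34b was 0.5 reads in C57BL/6J control, 0.2 in FVB/N control and 1.3 in FVB/N DEHP.

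Mir449a had more reads in C57BL/6J controls than in those of FVB/N. It had 17 ± 7.8 reads in C57BL/6J control sperm, 8.2 ± 3.6 in C57BL/6J DEHP sperm, 4 ± 3.8 in sperm of FVB/N controls, and 4.1 ± 1.8 in that of FVB/N DEHP males. Controls of C57BL/6J were above those of FVB/N by a log2 ratio of 1.85 ± 1.26, with C57BL/6J from 9.2 and FVB/N up to 7.8, so the ranges did not overlap. This ratio was at the 98.8th percentile of all promoters and was 1.24 with equal sums and 1.22 with equal medians, where the ranges overlapped. After DEHP the strain ratio was 0.85 ± 0.76, again with overlapping ranges. The DEHP ratio of the C57BL/6J strain was -0.97 ± 0.84 and that of FVB/N 0.03 ± 1.21, and the groups overlapped in both strains. With equal sums it was -0.45 and -0.05, and with equal medians -1.04 and -0.56.

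Mir449c, whose hairpin lies 1551 bp upstream of Mir449a, was close to free of reads in every group. It had 1.4 ± 2.0 reads in C57BL/6J control sperm, 0.7 ± 0.4 in C57BL/6J DEHP sperm, 0.9 ± 1.0 in sperm of FVB/N controls, and 0.4 ± 0.5 in that of FVB/N DEHP males. All ranges overlapped, and the log2 ratio of DEHP over control was -0.50 ± 1.25 (C57BL/6J) or -0.44 ± 0.92 (FVB/N). In C57BL/6J control 1 of the 5 males held at least 48.9% of the reads. Among promoters with like CG sites the level was between the 2.53rd and the 15.5th percentile.

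The overlap of the Mir449 probes places the reads of the locus. A read-pair in the shared 649 bp counts in both probes, so Mir449a reads in excess of Mir449c came from the 1551 bp that the Mir449c probe does not cover. This excess was at least 15.6 of 17 reads (91.8%) in C57BL/6J control, 7.5 of 8.2 in C57BL/6J DEHP, 3.1 of 4 in FVB/N control and 3.7 of 4.1 in FVB/N DEHP. Those 1551 bp held 17 CG sites, while the 1551 bp found in the Mir449c probe and not in that of Mir449a held 66 CG sites and at most 1.4 reads in any group. Per 100 CG sites, Mir449a had 58.6 reads in C57BL/6J control, Mir449c 1.79, Mir34a 94.9, Mir34b 0.714 and Mir34c 0.244. Among promoters with a like number of CG sites Mir449a was close to the middle in C57BL/6J control (49.4th percentile) and lower in FVB/N control (29.4th). The Mir449b probe, which shared 2085 bp (94.8%) with that of Mir449a, had 17 ± 7.8, 7.8 ± 3.6, 4 ± 3.8 and 4.1 ± 1.8 reads and is the same measurement.

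**Figure D3:**
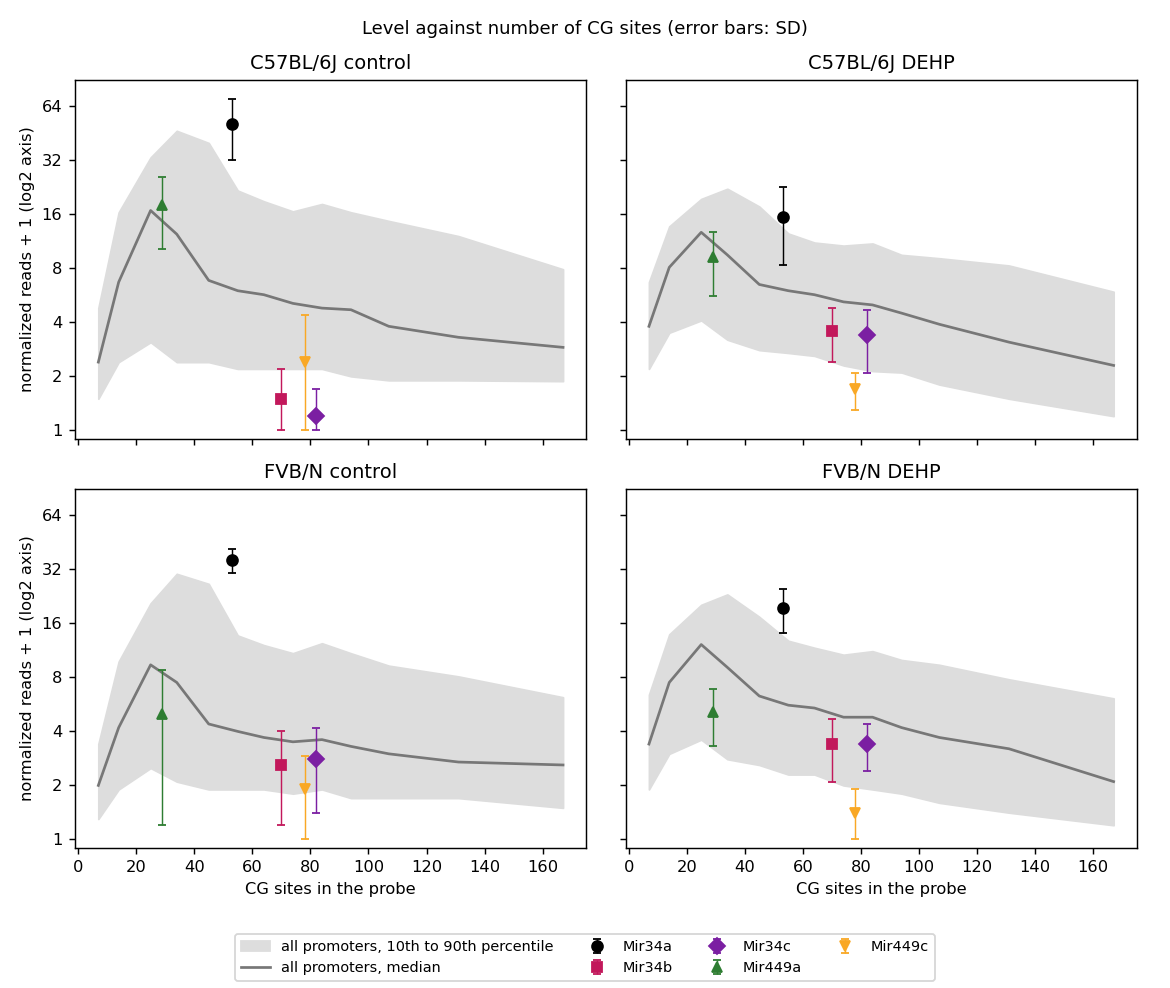
Level plus 1 (log2 axis) against the number of CG sites for the 5 promoters (points, SD as error bars cut at 0) over the median and the 10th to 90th percentile of all promoters binned by CG sites, in each group of 5 males. Mir34a lies above the grey band in all 4 groups, and Mir34b and Mir34c lie below it in C57BL/6J control and inside it elsewhere.

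Sequence differences between the strains were unevenly spread over the loci. By the deposited annotation the Mir449a probe held 21 variants between C57BL/6J and FVB/N, Mir449c held 17, and Mir34a, Mir34b and Mir34c held 2 each. At least as many as in Mir449a were found in 5.40% of all promoters, and 46.1% held any. As deposited, the log2 ratio of C57BL/6J over FVB/N in controls was 1.85 for Mir449a, 0.34 for Mir449c, 0.51 for Mir34a and -0.79 for Mir34b. Mir34c, with 2 variants, had control ratios below 0 under each setting tried (-1.22 as deposited, -1.45 with equal sums, -1.66 with equal medians). Its ranges overlapped between the control groups, and its C57BL/6J control mean was only 0.2 reads. The part of the variants in the differences between strains was not tested. The Cdc20b promoter, with 12 variants and 1596 bp shared with Mir449c, had 4 ± 4.1 reads in C57BL/6J control sperm, 3.3 ± 1.3 in C57BL/6J DEHP sperm, 1.1 ± 0.8 in sperm of FVB/N controls, and 2.8 ± 1.4 in that of FVB/N DEHP males, and its ranges overlapped in every comparison. Cdc20b is a relative of the cell cycle protein Cdc20 that serves multiciliated cells.

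Counted over the 5 probes, C57BL/6J DEHP was above control with ranges apart at 2 (Mir34b and Mir34c) and below at 1 (Mir34a). Among all promoters these calls were made at 3.67% and 11.8%. In FVB/N none was above and 1 (Mir34a) was below, against 8.69% and 3.67% of all promoters. Between controls C57BL/6J was above FVB/N at 1 (Mir449a) and below at none, against 9.84% and 0.258%. After DEHP no member was called in either direction, against 2.68% above and 0.703% below. Libraries were separated at 0 of 5 members in all 4 comparisons. Among all promoters separation was found at 0.249% above and 1.42% below for DEHP in C57BL/6J, at 0.774% and 0.859% for DEHP in FVB/N, at 1.06% and 0.0267% for C57BL/6J over FVB/N in controls, and at 0.307% and 0.0311% after DEHP. Counted by locus, the calls above control in C57BL/6J fell to 1. With 5 probes at 3 loci these counts are a description of the members.

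**Figure D4:**
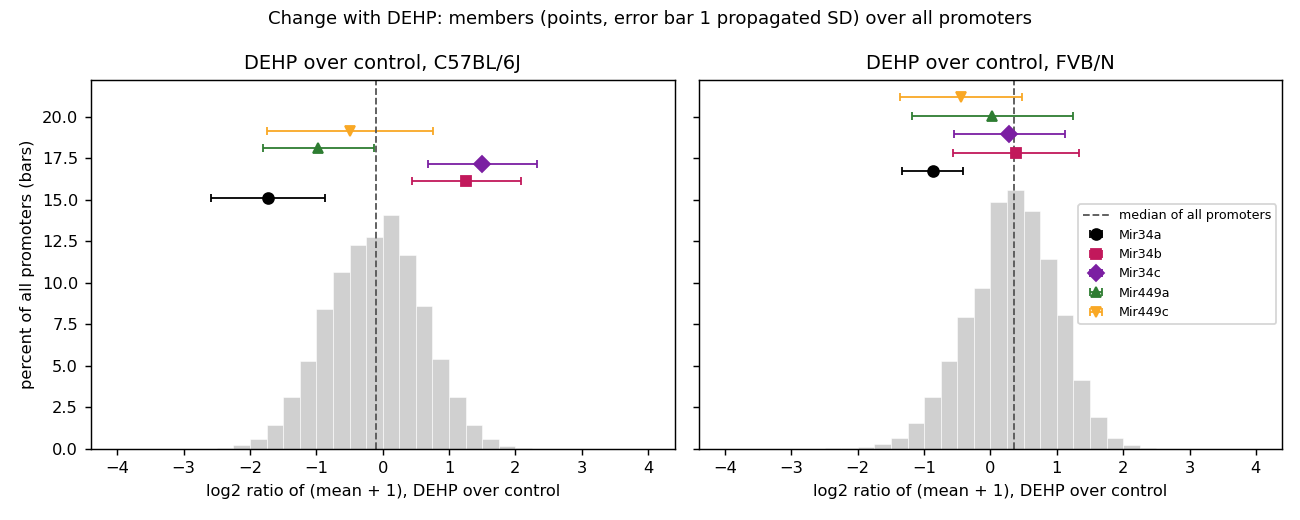
Log2 ratio of DEHP over control (mean plus 1) of the 5 promoters with 1 propagated SD, drawn over the distribution of all 22480 promoters (bars, percent of promoters per 0.25 of log2), in C57BL/6J at left and FVB/N at right. The heights of the points carry no value. Mir34a lies left of the dashed median of all promoters in both strains, and Mir34b and Mir34c lie right of it in C57BL/6J.

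The DEHP change differed between strains by amounts within their spread at 4 of the 5 promoters. The C57BL/6J log2 ratio less that of FVB/N was -0.85 ± 0.97 for Mir34a, 0.88 ± 1.26 for Mir34b, 1.22 ± 1.17 for Mir34c, -1.0 ± 1.47 for Mir449a and -0.06 ± 1.55 for Mir449c. The median over all promoters was -0.50, and Mir34c stood at the 98.9th percentile. For Mir34b and Mir34c the C57BL/6J controls were below the FVB/N controls, by a log2 ratio of -0.79 ± 1.03 and -1.22 ± 0.94 with overlapping ranges. The ratio between the DEHP groups was 0.08 ± 0.73 and 0.00 ± 0.70.

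**Figure D5:**
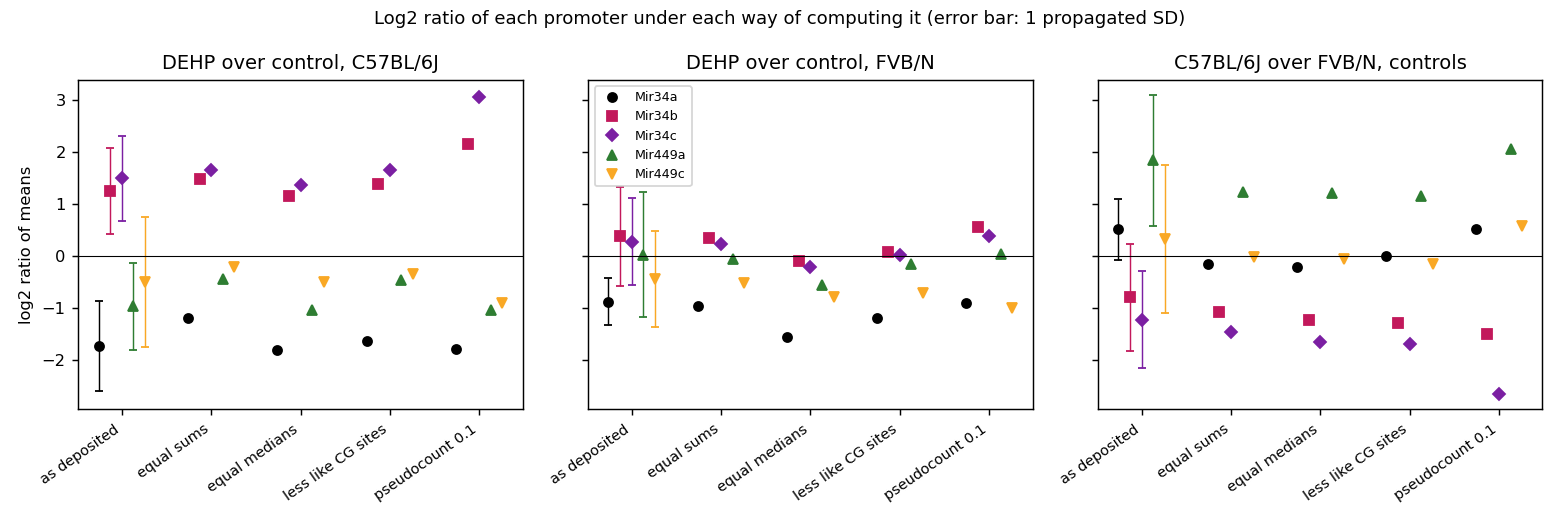
Log2 ratio of each promoter in 3 comparisons with the values as deposited (error bar 1 propagated SD) and under 4 other ways of computing it. Mir34a stays below 0 for DEHP in both strains, Mir34b and Mir34c stay above 0 in C57BL/6J and cross 0 in FVB/N, and between the controls Mir449a stays above 0 while Mir34b and Mir34c stay below it.

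Promoters of genes that work with the family were described from lists. Of 9 regulators 7 were measured (Trp53, Trp63, E2f1, Mybl1, Mybl2, Foxj1 and Rfx2), and Trp73 and Myc were not analysed here. With ranges apart, 0 were higher and 1 lower after DEHP in C57BL/6J, and 1 was higher and 0 lower in FVB/N. A count of 1 of 7 is close to the share of all promoters called in those directions (11.8% lower in C57BL/6J, 8.69% higher in FVB/N). The lower one was Foxj1, the master regulator of motile cilia, with 48.3 ± 17.1 reads in C57BL/6J control and 20 ± 5.8 in DEHP (log2 ratio -1.23). In FVB/N Foxj1 had 23.1 ± 12.8 and 18.7 ± 5.7. The higher one was Trp63, a p53 relative active in germ cells, with 2.5 ± 2.4 reads in FVB/N control and 7.8 ± 1.2 in DEHP (1.33). In C57BL/6J Trp63 had 2.1 ± 1.5 and 7.2 ± 3.9 (1.40), with overlapping ranges. Trp53 had the lowest ratio in FVB/N (-0.68), from 1.4 ± 1.0 to 0.5 ± 0.5 reads.

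Of 18 target genes 16 were measured, with Ccnd1 and Myc not analysed here. In C57BL/6J 0 were higher and 1 lower, Snai1, a repressor that drives epithelial cells to a mesenchymal state, with 9.7 ± 3.5 reads in control and 3.3 ± 2.2 in DEHP (-1.32). In FVB/N 1 was higher, E2f5, a transcription factor of the cell cycle and of ciliated cells, with 1 ± 1 and 3.3 ± 1.1 (1.10), and 0 were lower. Each is 1 of 16, below the shares over all promoters of 11.8% and 8.69%. Notch1 had the highest ratio in C57BL/6J (0.71) and Cdk6, a cell cycle kinase, the lowest in FVB/N (-1.12), both with overlapping ranges. Over the targets the median ratio was -0.14 for C57BL/6J and 0.15 for FVB/N. Of 13 genes of microRNA processing and effector complexes 11 were measured, with Dgcr8 and Tarbp2 not analysed here. No range was apart in C57BL/6J, where Ago2 had the lowest ratio (-0.95) and Ago3 the highest (0.78). In FVB/N 1 was higher, the Argonaute gene Ago3, with 1.8 ± 1.6 and 4.2 ± 0.5 (0.89), 1 of 11 against 8.69% of all promoters, and Tnrc6b had a larger ratio (1.33) with overlapping ranges, while Ago1 had the lowest (-0.38). None of the promoters of these 3 lists had separated libraries. The single calls in these lists depended on the scale. With equal sums 0 were lower and 1, 2 and 1 higher in C57BL/6J (regulators, targets, processing), and with equal medians 0 were higher in FVB/N. These scalings moved the median of all promoters by 0.43 in C57BL/6J and by -0.53 in FVB/N. The shares of all promoters called under them were not counted, so these counts say nothing particular about the lists.

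For a microRNA promoter comparison, 7 of the 9 promoters of the mir-106b-25 and mir-17-92 clusters were measured. These clusters were chosen with their lower level after DEHP in FVB/N already known from these data, so their counts are no independent evidence. All 7 (Mir17, Mir18, Mir19a, Mir20a, Mir25, Mir93 and Mir106b) were lower after DEHP with ranges apart in both strains, as was 1 of the 5 family promoters (Mir34a), while 11.8% of all promoters were lower in C57BL/6J and 3.67% in FVB/N. All 7 had separated libraries in FVB/N, a call made at 0.859% of all promoters. In C57BL/6J the count with ranges apart was 4 with equal sums, where the share of all promoters was not counted, and 0 had separated libraries. The ratios ran from -2.32 (Mir17) to -1.18 (Mir106b) in C57BL/6J and from -2.27 to -1.21 in FVB/N. The Mir34a ratio of -1.73 lay inside that range in C57BL/6J and its ratio of -0.87 lay outside it in FVB/N, and the other 4 members lay outside it in both. The 7 probes belong to 2 loci and overlap each other.

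The nearest patterns over the 4 group means (Euclidean distance of log2 of mean plus 1, 4 groups) belonged to Egfl8 (0.143) and Pip5k1c (0.163) for Mir34a, to Olfr835 (0.148) and Ahi1 (0.180) for Mir34b, and to C130079G13Rik (0.186) and Olfr693 (0.218) for Mir34c. For Mir449a they were Zbtb4 (0.203) and S1pr5 (0.311), and for Mir449c Zbtb44 (0.146) and Fam72a (0.160). Within a distance of 0.5 there were 132 promoters for Mir34a, 114 for Mir34b, 23 each for Mir34c and Mir449a, and 229 for Mir449c. The CG sites of these neighbours ranged widely, from 38 in Egfl8 to 89 in Pip5k1c for Mir34a, and Olfr835 held 5 against 70 in Mir34b.

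As a check of the labelled cell type, 9 promoters at maternally methylated imprinted loci, which lack methylation in sperm, were read in C57BL/6J control. Their levels ran from 0.5 to 26.5 reads with a median of 3.9, and 5 of 9 were below the 50th percentile of promoters with like CG sites. Any set of promoters would give a count near this, so the count does not show that these lacked methylation. Those percentiles ran from the 1.69th to the 96.5th, with a median at the 27.5th. Nnat (26.5 ± 8.6) and Inpp5f (15 ± 6.1) were high, at the 96.5th and the 88.3rd. The same promoters were read after DEHP. In C57BL/6J 1 of 9 was higher and 1 lower with ranges apart, and in FVB/N 1 was higher and 0 lower. Among all promoters as deposited these calls were made at 3.67% and 11.8% in C57BL/6J and at 8.69% and 3.67% in FVB/N. With equal sums 0 were lower in C57BL/6J, and with equal medians 0 were higher and 2 lower in FVB/N. The shares of all promoters under these scalings were not counted. Snrpn had 0.5 ± 0.7 reads in C57BL/6J control sperm and 4 ± 1.0 after DEHP (1.74), with separated libraries, and 1.1 ± 1.2 and 4.4 ± 1.2 in FVB/N (1.36). Among all promoters 0.249% were separated with C57BL/6J DEHP higher. Nnat had 9.5 ± 3.8 reads after DEHP in C57BL/6J (-1.39), and the lowest ratio in FVB/N was that of Nespas (-1.30, ranges overlapping), from 8.1 ± 4.9 to 2.7 ± 2.6. Summed over the 9 promoters the level was 64.2 reads in controls and 42.8 after DEHP for C57BL/6J, 49.8 and 43.9 for FVB/N, and none was at 0. A probe need not lie over the methylated region itself, and the share of other cells in the sperm preparations was not tested, nor was its part in the DEHP differences above.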

How the data were processed

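Sperm DNA of 20 males (5 per group) was captured with a methyl binding domain and sequenced by the authors, who mapped the read-pairs to mm10 using Bowtie 0.12.7, removed ambiguous and non-concordant pairs and pairs without a CG site, counted the pairs overlapping each probe of 2200 bp and normalized these counts in edgeR. The signal deposited by the authors is, for each group, a mean of normalized reads and its SD, both given to 1 decimal. Counts of CG sites and of strain variants per probe are the authors' annotation as deposited. Columns with the authors' own fold changes, p-values and FDR were not used, nor were the annotation columns on expression and function. Values of single libraries were not analysed here, so the depth of each library is unknown. On average the paper reports more and slightly longer read-pairs for DEHP than for control libraries, so depth differed along with exposure. Its part in the DEHP differences was not tested. The test planned for single libraries was replaced by the description planned for group means.

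Computed were log2 ratios of means with a pseudocount of 1, their propagated SD, calls where mean ± 1 SD did not overlap, and separated libraries (mean ± 1.79 SD, widened by a rounding step of 0.05, tested on simulated data). Promoters with like CG sites had a number within 10% of the member's. Sequence came from GRCm38.p6 and annotation from GENCODE for that assembly. The CG count of the sequence equalled the deposited count for all 5 members. Named were all members, the other family member, genes whose probe overlaps a member's, the 2 nearest patterns per member, and of each list the promoters with separated groups and those with the highest and lowest ratio in each strain. Further list promoters with ranges apart (Ago3) and the levels of Nnat and Inpp5f were chosen after their values were seen. The members and lists were chosen with earlier results of these data known. Alternatives were a pseudocount of 0.1, scaling to equal sums or equal medians, subtraction of promoters with like CG sites, 1 probe per locus, levels per CG site, and promoters with means of at least 1. Scripts ran in Python 3.11.15 (numpy 2.4.6, pandas 2.3.3, matplotlib 3.10.9).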

Additional observations from a re-analysis of the deposited data

How the results depend on the processing

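The log2 ratios of the 5 promoters, the difference of the DEHP change between strains and the counts of members stayed within their spread or count under most alternatives. With equal medians the Mir34a ratio of DEHP over control in FVB/N was -1.56, and 1 member (Mir34a) then had separated libraries there. The share of all promoters separated under that scaling was not counted. The Mir34a ratio of C57BL/6J over FVB/N in controls was -0.15 with equal sums and -0.21 with equal medians, against 0.51 as deposited, and members above in that comparison numbered 0 under both scalings. With equal sums 0 members were below control in C57BL/6J. The shares of all promoters with ranges apart under either scaling were not counted, and the shares given above are those of the deposited scale. With 1 probe per locus 1 member was above control in C57BL/6J. A pseudocount of 0.1 gave log2 ratios of 2.17 for Mir34b and 3.06 for Mir34c for DEHP in C57BL/6J, -2.66 for Mir34c between controls, and 2.66 for its difference between strains. The percentile of the Mir34a level in C57BL/6J control was 90.8 per CG site. Subtracting promoters with like CG sites moved 0 of 25 values by more than their spread. Promoters that had a mean under 1 in any group (Mir34b, Mir34c and Mir449c) could not be ranked among those with means of at least 1. Leaving out single libraries was not run, since only group values were used. No paired analysis was made, because control and DEHP males were offspring of different dams. Mir34b, Mir34c and Mir449c had levels of a few reads, and the ratios of Mir34b and Mir34c for DEHP in FVB/N changed sign with equal medians (-0.09 and -0.21).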
